A study of Mus musculus with 15 samples.

Results

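Collagens and core matrix glycoproteins were followed here in organoids of mouse colon cancer, over 15 libraries of RNA sequencing. The set is defined by gene name. It was chosen with earlier results of these data known, so its counts beside those of all genes are descriptive. It holds every gene whose GENCODE mouse symbol is built as Col, number, a, number, which gives 44 genes. A further 21 genes were picked by name: matrix genes such as Efemp1 and Fn1, and the secretory pathway enzymes Ppic and Colgalt1. All 65 were found among the 54418 gene IDs of the count table. Of these, 33 (18 collagens and 15 others) were among the 14925 genes that passed the filter on low counts, and the other 32 could not be tested.

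Organoids are three-dimensional cultures of epithelial cells. Those used here have the genotype that the labels call AKP and had been through the colons of C57Bl6 recipient mice before they were brought back into culture. Met1, Met2 and Met3 are organoids from liver metastases of transplant rounds 1, 2 and 3, and Primary2 and Primary3 are organoids from primary tumours of rounds 2 and 3, with 3 libraries (rep 1 to 3) in each group. The genotype, the recipient strain and the passage through mice are common to all 5 groups. A primary group of round 1 was not analysed here, so Met1 was set against primaries of later rounds. The labels do not say whether the replicates of a group are separate mice, organoid lines or cultures, and every p-value therefore speaks only of the spread among these libraries, which may be technical.

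The basement membrane is the sheet of matrix on which an epithelium rests. It is built from a collagen IV network and a laminin network, which nidogens and the proteoglycans perlecan and agrin tie together. Fibrillar collagens, fibronectin and most fibulins belong to the stroma around it and are made mainly by fibroblasts in the gut. Collagen chains are folded, hydroxylated and glycosylated in the endoplasmic reticulum before secretion. The set includes a pair of enzymes of the secretory pathway, Ppic and Colgalt1, of which Colgalt1 glycosylates collagen. Whether Ppic acts on collagen here was not tested.

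Libraries held 14122203 to 21306543 counts. Levels are given as counts per 1000000 counts of the scaled library (CPM), and comparisons between genes use CPM per kb of exon. The 11 epithelial markers, which stand for the labelled cell type, summed to 5881 to 17010 CPM in the later metastases (Met2 and Met3), 11460 to 14450 in Met1 and 6382 to 8840 in the primaries. The 14 fibroblast and pericyte markers summed to 0.147 to 4.02 CPM, and Lum, Des and Dpt had no count in any library. None of them passed the filter with all libraries. With 1 library of the later metastases or primaries left out, 1 passed and was called lower in the later metastases, except without Primary2 rep 3. Without the low-count filter 11 were tested, 1 lower and 0 higher. The 9 endothelial markers summed to 3.16 to 46.5 CPM in Met1, 3.51 to 11.7 in the later metastases and 1.71 to 4.51 in the primaries, with Kdr and Emcn at no count. The 8 blood cell markers summed to 6.02 to 29.3 CPM, with Adgre1, Lyz2 and Tyrobp at none. Of 6 hepatic stellate cell markers Ngfr made up nearly all of 0.278 to 48.1 CPM, and of 5 mesothelial markers Msln made up nearly all of 145 to 838 CPM. The hepatocyte markers summed to 1.70 to 6.36 CPM in Met1 and to at most 1.45 CPM in every other library. The summed ranges of fibroblast markers were 0.147 to 4.02 CPM in the later metastases and 0.578 to 2.89 CPM in the primaries, and the part of any marker list in the results below was not tested. A pair of libraries, singled out after their values were seen, stood apart within their groups in the genes named next. Met2 rep 1 had the highest fibroblast sum (4.02 CPM, with Dcn at 2.28 and Pdgfra at 1.07) and the lowest epithelial sum, with the enterocyte lectin Lgals4 at 9.52 CPM against 1092 and 1463 in the other Met2 libraries. Primary3 rep 3 alone had Sparc, Col6a1 and Col5a1 above 1 CPM. It did not stand apart over all genes. Primary3 reps 2 and 3 were the closest pair of replicates (chi-square of counts per degree of freedom 10.67). The pairs with Primary3 rep 1 were at 43.81 and 47.18. The share of counts on a ribosomal RNA gene was 6.24% to 7.52% in Met2, 3.53% to 7.03% in Primary3 and 2.01% to 4.09% in the other groups.

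Per kb of exon, the most abundant member was Ppic (149 CPM per kb, mean of the 15 libraries), followed by Lama5 (31.4), Colgalt1 (29.4), Agrn (25.8), Col4a2 (19.4), Col4a1 (17.5), Thbs1 (16.6) and Col18a1 (14.3). Ppic led through the primaries alone: it averaged 6.01, 1.48 and 0.0274 CPM per kb in Met1, Met2 and Met3, and 196 and 542 in Primary2 and Primary3. Lama5 averaged 27.01, 28.4 and 33.3 CPM per kb in Met1, Met2 and Met3. Apart from the enzymes Ppic and Colgalt1 and the glycoprotein Thbs1, these are components of basement membranes. Of the fibrillar collagens, Col1a1, the main chain of stromal collagen, did not exceed 0.118 CPM in any library.

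The main comparison set the later metastases (Met2 and Met3, 6 libraries) against the primaries (Primary2 and Primary3, 6 libraries). Matrix genes of several roles were lower in the later metastases: both main collagen IV chains, perlecan, fibronectin, 3 fibulins, Col14a1 and Ccdc80. Both secretory pathway enzymes, which are not matrix components, were lower as well. By edgeR's quasi-likelihood test, 17 of the 33 members were lower and 3 higher at an adjusted p under 0.05, while 30.4% of all tested genes passed in either direction, 16.1% lower and 14.3% higher. Of the 18 tested collagens, Col4a1, Col4a2, Col4a3, Col4a4, Col7a1, Col14a1 and Col27a1 were lower and Col6a5 and Col9a1 higher. The remaining calls were among the 15 tested genes picked by name, of which only Fbln5 was higher. Members outside the rule for named genes, such as Lamb1, Col8a1 and Col16a1, were singled out after their values were seen. The median log2 change of the 33 was -1.95, against 0.01 for all tested genes. Fewer cells of a type and less RNA per cell cannot be told apart in such bulk libraries. In 15 of the 33 members the libraries of both sides did not overlap, 14 of them lower and 1 (Col9a1) higher, against 12.2% of all tested genes, 7.69% lower and 4.56% higher. The sum over the 44 collagens was 128 to 263 CPM in the 6 later metastasis libraries and 509 to 846 CPM in the 6 primary libraries.

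**Figure D1:**
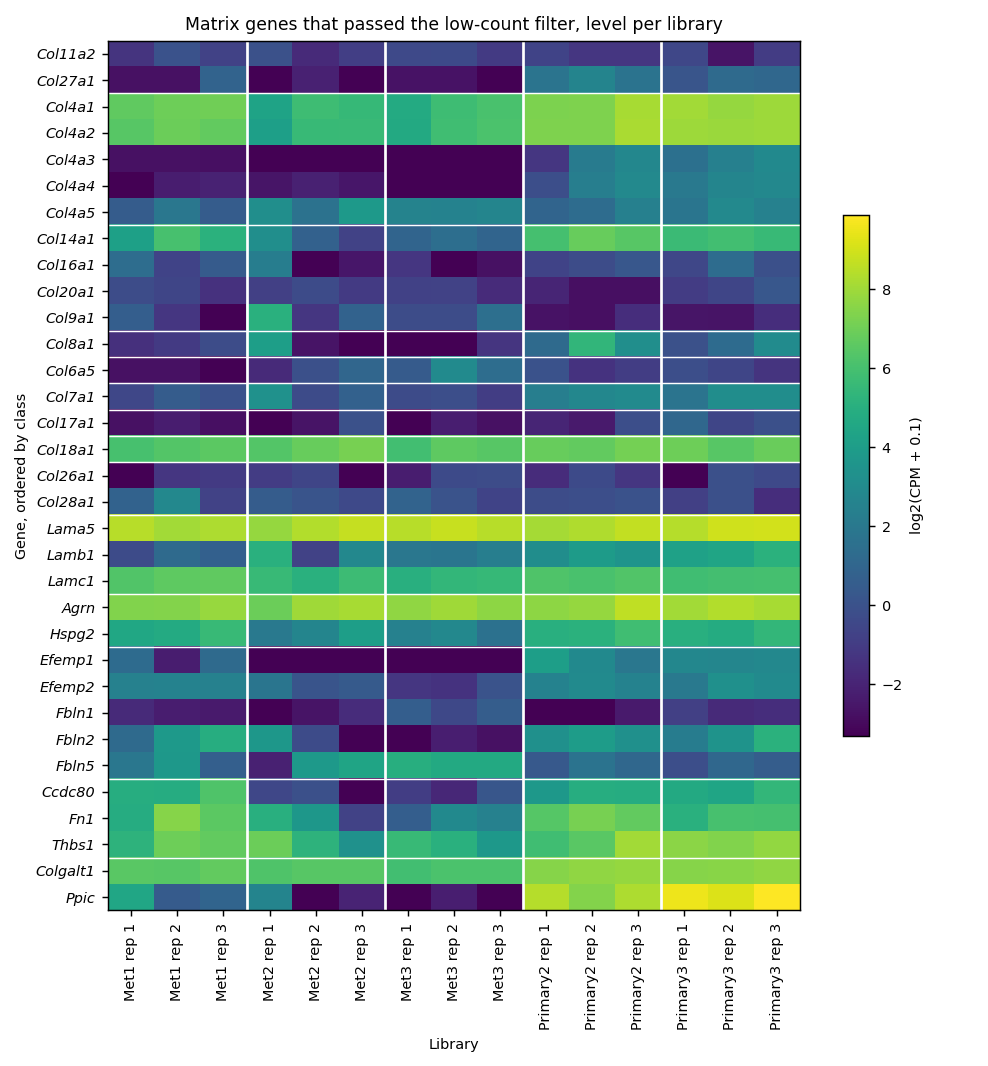
Level of each of the 33 members that passed the low-count filter (rows, ordered by class, white lines between classes) in each of the 15 libraries (columns, by group), as log2(CPM + 0.1). Lama5, Agrn and Col18a1 are bright in every library, Ppic is brightest in the 6 primary libraries, and Col4a3, Col4a4 and Efemp1 are dark in all 6 libraries of Met2 and Met3.

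Collagen IV has 6 chains encoded by genes that lie head to head in pairs. Col4a1 (ENSMUSG00000031502, chromosome 8, 11198423 to 11312826, minus strand) and Col4a2 (ENSMUSG00000031503, chromosome 8, 11312805 to 11449287, plus strand) encode the widely expressed chains, and their annotated starts lie 21 bases apart on GRCm38, so that the genes overlap there. Their promoter windows, 250 bases before to 50 after each start, are shown because both RNAs stayed near a 1 to 1 ratio in every library. They are taken from RefSeq on GRCm38.p6, and capitals mark the 78 bases that both windows hold, read on opposite strands.
Col4a1, chr8:11312777-11313076, minus strand: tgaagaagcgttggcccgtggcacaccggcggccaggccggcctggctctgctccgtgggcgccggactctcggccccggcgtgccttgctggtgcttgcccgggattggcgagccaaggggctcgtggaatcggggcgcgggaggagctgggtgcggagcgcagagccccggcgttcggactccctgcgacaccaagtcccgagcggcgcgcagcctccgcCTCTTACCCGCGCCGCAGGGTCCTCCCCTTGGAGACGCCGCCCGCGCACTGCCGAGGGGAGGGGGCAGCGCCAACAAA
Col4a2, chr8:11312555-11312854, plus strand: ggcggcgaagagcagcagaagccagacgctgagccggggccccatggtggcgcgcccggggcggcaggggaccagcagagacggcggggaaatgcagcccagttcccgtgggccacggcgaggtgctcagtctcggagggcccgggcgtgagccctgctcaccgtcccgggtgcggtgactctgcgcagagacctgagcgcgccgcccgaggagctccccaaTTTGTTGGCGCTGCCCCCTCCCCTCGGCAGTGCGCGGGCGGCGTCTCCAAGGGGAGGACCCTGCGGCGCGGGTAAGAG

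Col4a1 was at 19.97, 54.5 and 45.2 CPM in Met2 and 26.8, 54.8 and 67.1 in Met3, against 158, 161 and 286 in Primary2 and 263, 223 and 244 in Primary3. Every later metastasis library lay below every primary library, and the gene fell (log2 -2.32, SE 0.27, adjusted p = 0.000134). Col4a2 was at 17.5, 46.9 and 48.6 CPM in Met2 and 26.3, 56.95 and 69.8 in Met3, against 159, 163 and 291 in Primary2 and 247, 241 and 247 in Primary3. It too showed no overlap and fell (log2 -2.35, SE 0.29, adjusted p = 0.000163). In Met1 the levels lay between both, at 102, 124 and 131 CPM for Col4a1 and 86.6, 121 and 104 for Col4a2. The ratio of Col4a1 to Col4a2, in CPM, stayed between 0.926 and 1.27 over all 15 libraries, although the level of Col4a1 ran from 19.97 to 286 CPM. Together both chains made up 17.9% to 56.7% of collagen CPM in the later metastases, against 53.3% to 72.3% in the primaries, a share that was not tested.

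Col4a3 (ENSMUSG00000079465, chromosome 1, 82586921 to 82722059, plus strand) and Col4a4 (ENSMUSG00000067158, chromosome 1, 82448423 to 82586849, minus strand) encode chains of the specialised collagen IV network of kidney glomeruli and some other basement membranes, and their annotated starts lie 72 bases apart. Col4a3 had no count in any of the 6 later metastasis libraries. In the primaries it was at 0.322, 4.4 and 6.83 CPM in Primary2 and 2.83, 5.33 and 7.54 in Primary3, 498 counts in all. It was therefore at least 151-fold lower, computed against a floor of 3 counts over the group (adjusted p = 0.000476). Col4a4 was at 0.067, 0.129 and 0.0734 CPM in Met2 and without a count in Met3, against 0.806, 4.86 and 7.2 in Primary2 and 3.91, 6.3 and 6.95 in Primary3. No later metastasis library reached the lowest primary library (log2 -7.57, SE 0.80, adjusted p = 0.000141). Primary2 rep 1 had the lowest level of both genes among the primaries. Met1 was also low, at 0.0501, 0.053 and 0.0457 CPM for Col4a3 and 0, 0.106 and 0.137 for Col4a4.
The RefSeq window of Col4a4 is shown as the start region of the pair with the least RNA in metastases. Capitals mark its E-box match (CANNTG), and no GATA, AP-1 or TEAD motif was found in it.
Col4a4, chr1:82586800-82587099, minus strand, GRCm38.p6: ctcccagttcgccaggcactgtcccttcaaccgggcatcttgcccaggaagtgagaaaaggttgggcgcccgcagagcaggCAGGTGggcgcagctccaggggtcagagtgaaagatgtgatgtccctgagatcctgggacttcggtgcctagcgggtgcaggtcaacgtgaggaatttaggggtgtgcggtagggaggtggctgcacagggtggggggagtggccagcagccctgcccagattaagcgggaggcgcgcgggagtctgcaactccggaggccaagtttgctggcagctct

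Col4a5 encodes the partner of these chains in the specialised network. It was at 9.12, 3.09 and 13.7 CPM in Met2 and 5.82, 5.77 and 6.45 in Met3, against 1.83, 2.41 and 5.26 in Primary2 and 3.44, 7.26 and 5.42 in Primary3. The groups overlapped and the difference did not pass (log2 0.80, SE 0.40, adjusted p = 0.142), although it did without Met2 rep 2 (adjusted p = 0.0478). Its neighbour Col4a6, whose start lies 1309 bases away, had counts only in Primary3 reps 1 and 2 and did not pass the filter. Of the 6 collagen IV genes, 4 were thus lower in the later metastases, 1 did not pass the test and 1 could not be tested.

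**Figure D2:**
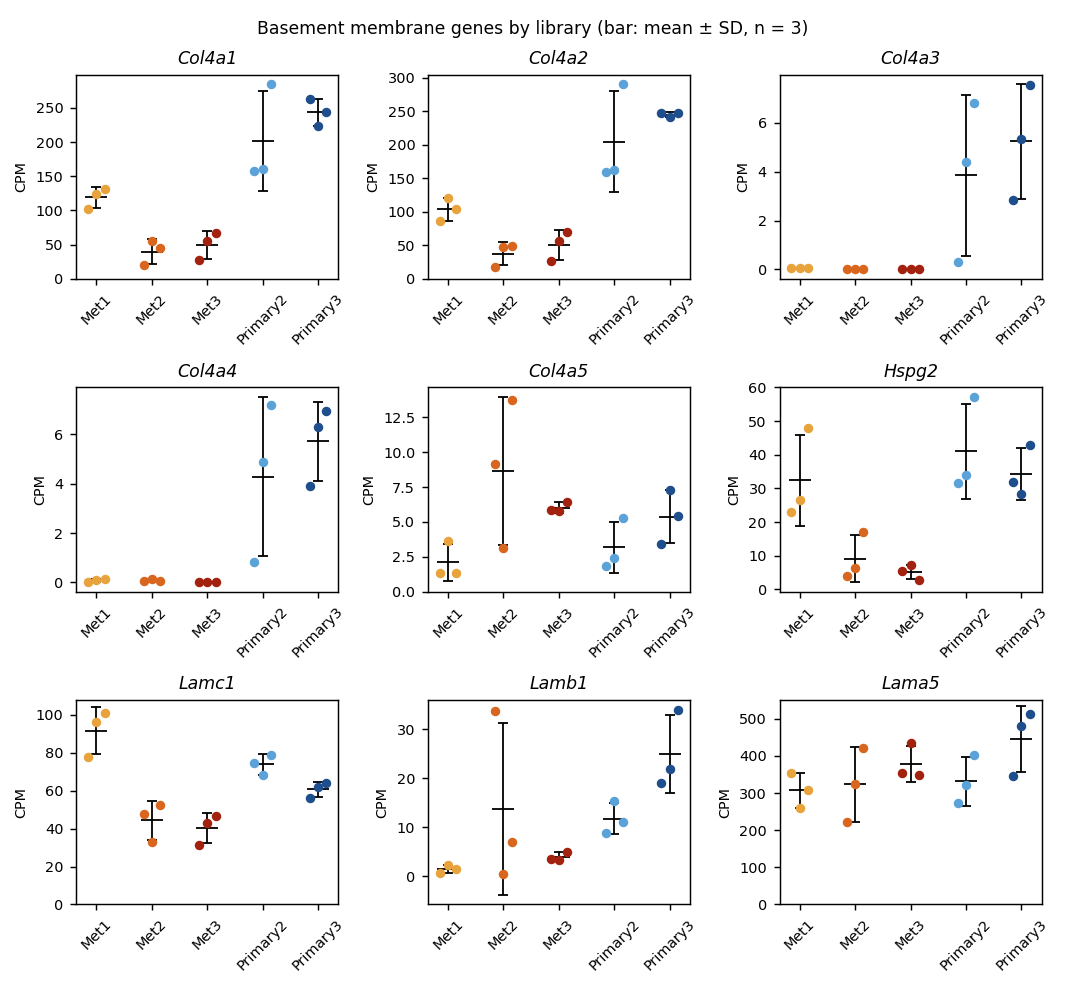
Level in CPM (vertical axis, linear, own scale per gene) of 9 basement membrane genes in the 5 groups (horizontal axis). Each point is a library and the bar gives mean ± SD (n = 3). Col4a1, Col4a2 and Hspg2 lie lower in Met2 and Met3 than in Primary2 and Primary3, Col4a3 and Col4a4 lie near 0 in all metastasis groups, and Lama5 overlaps in all groups.

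Laminins are trimers of an alpha, a beta and a gamma chain, and Lama5, Lamb1 and Lamc1 encode the chains of the main laminin of the adult gut epithelium. Lamc1, the gamma chain (ENSMUSG00000026478, chromosome 1, 153218922 to 153332786), was at 47.6, 32.9 and 52.5 CPM in Met2 and 31.6, 42.8 and 46.5 in Met3, against 74.7, 68.1 and 79.1 in Primary2 and 56.00, 61.8 and 64.2 in Primary3. The change was small but without overlap (log2 -0.66, SE 0.13, adjusted p = 0.00244). In Met1 Lamc1 was at 77.6, 96.1 and 101 CPM, 2 of 3 libraries above all primaries, and with Met1 counted among the metastases the call was lost (adjusted p = 0.0735). Lama5 was at 222, 324 and 422 CPM in Met2 and 353, 434 and 349 in Met3, against 272, 320.5 and 403 in Primary2 and 346, 479.7 and 512 in Primary3. The groups overlapped and no difference passed (log2 -0.14, SE 0.16, adjusted p = 0.556). Lamb1, the beta chain, was at 33.6, 0.516 and 6.98 CPM in Met2 and 3.61, 3.35 and 4.98 in Met3, against 8.92, 15.3 and 11.1 in Primary2 and 19.1, 21.9 and 33.99 in Primary3. By edgeR with all libraries it did not pass (log2 -1.21, SE 0.61, adjusted p = 0.149), while it did by limma-voom (adjusted p = 0.0311) and with Met1 counted among the metastases (0.0161). Without Met2 rep 1, the only metastasis library within the primary range, the log2 change was -2.16 (adjusted p = 0.0056), and without that library and Primary3 rep 3 together the adjusted p was 0.0154. Lama1 and Lama4 did not pass the filter, with at most 0.108 and 0.067 CPM in any library.

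Hspg2 encodes perlecan, the large heparan sulfate proteoglycan of basement membranes (ENSMUSG00000028763, chromosome 4, 137468769 to 137570630). It was at 3.96, 6.32 and 17.1 CPM in Met2 and 5.44, 7.16 and 2.94 in Met3, against 31.8, 34.1 and 57.3 in Primary2 and 31.9, 28.2 and 42.9 in Primary3. All 6 later metastasis libraries lay below all 6 primary libraries, and the gene fell (log2 -2.45, SE 0.36, adjusted p = 0.000481). Its Met1 levels, 22.9, 26.5 and 47.9 CPM, overlapped those of the primaries. Agrn, which encodes agrin, the other large proteoglycan of the set, was at 119.5, 257 and 281 CPM in Met2 and 207, 256 and 196 in Met3, against 203, 222 and 398 in Primary2 and 266, 333 and 288 in Primary3. Agrn overlapped and did not pass (log2 -0.38, SE 0.21, adjusted p = 0.201). Col18a1, a collagen of the basement membrane zone that carries heparan sulfate and from which endostatin is cut, was at 82.5, 113 and 146 CPM in Met2 and 59.6, 98.6 and 87.7 in Met3, against 111, 104 and 138 in Primary2 and 123, 86.8 and 115 in Primary3. It likewise did not pass (log2 -0.22, SE 0.17, adjusted p = 0.34). Whether the change of Hspg2 differs from that of Agrn or Col18a1 was not tested. The nidogens Nid1 and Nid2 stayed at or below 0.401 CPM and could not be tested, nor could Col15a1, the relative of Col18a1 (at most 0.278 CPM).

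Fibulins are secreted glycoproteins with repeated EGF-like domains that bind elastic fibres and basement membranes. All 5 fibulins of the set passed the filter. Efemp1, also known as fibulin-3 (ENSMUSG00000020467, chromosome 11, 28853204 to 28926743), had no count in any later metastasis library. In the primaries it was at 16.7, 7.5 and 3.65 CPM in Primary2 and 6.74, 6.68 and 7.07 in Primary3, 874 counts in all, so that it was at least 265-fold lower against the floor of 3 counts (adjusted p = 0.000409). In Met1 Efemp1 was at 2.35, 0.106 and 2.24 CPM. Efemp2, or fibulin-4, which is needed for elastic fibre assembly (ENSMUSG00000024909, chromosome 19, 5473954 to 5482517), was at 3.35, 0.967 and 1.25 CPM in Met2 and 0.323, 0.288 and 0.943 in Met3, against 5.75, 8.01 and 5.64 in Primary2 and 3.91, 9.77 and 7.78 in Primary3. It fell with no overlap (log2 -2.78, SE 0.39, adjusted p = 0.000361). Its Met1 levels, 5.51, 5.62 and 5.44 CPM, lay within the primary range. Fbln2 (ENSMUSG00000064080, chromosome 6, 91212455 to 91272540) was at 12.8, 0.709 and 0 CPM in Met2 and 0, 0.115 and 0.0524 in Met3, against 9.89, 15.7 and 9.86 in Primary2 and 4.65, 10.9 and 34.9 in Primary3. It fell (log2 -4.74, SE 1.14, adjusted p = 0.00801) although Met2 rep 1 lay within the primary range, and without that library the log2 change was -6.53 (adjusted p = 0.000501). Fbln2 was at 2.3, 13.5 and 29.6 CPM in Met1, overlapping the primaries.

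Fbln5, which guides elastic fibre assembly at the cell surface (ENSMUSG00000021186, chromosome 12, 101746565 to 101819055), was the member of the family called higher. It was at 0.134, 13.5 and 20.9 CPM in Met2 and 31.1, 25.7 and 25.8 in Met3, against 1.18, 3.15 and 2.04 in Primary2 and 0.809, 1.99 and 1.41 in Primary3. All later metastasis libraries but Met2 rep 1 lay above all primaries. Fbln5 was higher (log2 3.35, SE 0.77, adjusted p = 0.00624), a call that limma-voom did not make (adjusted p = 0.073). Its Met1 levels were 3.66, 12.9 and 1.51 CPM. Fbln1 was at 0, 0.0645 and 0.22 CPM in Met2 and 1.46, 0.635 and 1.36 in Met3, against 0, 0 and 0.0948 in Primary2 and 0.472, 0.193 and 0.236 in Primary3. It did not pass (log2 1.63, SE 0.72, adjusted p = 0.105), but did without Met2 rep 1 (adjusted p = 0.0456) and without Primary2 rep 3 (0.0333). Together the fibulins of the set summed to 15.2 to 32.9 CPM in the later metastases and 16.6 to 51.4 CPM in the primaries.
Windows of Efemp1 and of the first RefSeq start of Fbln5 are shown as the fibulin with no count in the later metastases and the one that was higher there. Capitals mark motif matches: in Efemp1 an E-box at the left end and then an AP-1 site (TGANTCA), in Fbln5 a pair of E-boxes.
Efemp1, chr11:28852955-28853254, plus strand, GRCm38.p6: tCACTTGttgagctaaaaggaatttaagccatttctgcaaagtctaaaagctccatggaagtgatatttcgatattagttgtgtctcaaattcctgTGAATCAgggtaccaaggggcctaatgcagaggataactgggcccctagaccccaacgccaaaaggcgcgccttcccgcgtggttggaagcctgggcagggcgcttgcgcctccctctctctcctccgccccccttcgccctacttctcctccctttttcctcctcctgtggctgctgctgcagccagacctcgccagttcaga
Fbln5, chr12:101819070-101819369, minus strand, GRCm38.p6: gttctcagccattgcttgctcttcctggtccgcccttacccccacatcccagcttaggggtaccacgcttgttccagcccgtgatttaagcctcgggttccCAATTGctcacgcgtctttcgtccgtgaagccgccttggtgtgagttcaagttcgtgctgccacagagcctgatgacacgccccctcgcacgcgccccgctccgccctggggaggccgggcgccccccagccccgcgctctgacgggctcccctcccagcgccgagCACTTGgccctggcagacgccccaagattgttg

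RefSeq promoter windows were available for 48 of the 65 members, 58 windows in all. A GATA motif (spelled AGATAA with the other forms AGATAG, then TGATAA, and last the form TGATAG, on both strands) was found in 12.1% of them, against 29.8% of the 32817 windows of all genes. On both strands, the AP-1 motif TGANTCA was in 3.45% of members' windows against 7.81% of all, the TEAD motif GGAATG in 10.3% against 14.7%, and the E-box CANNTG in 56.9% against 72.3%. Matches of different motifs may overlap, and a match describes the letters only.

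Fn1 encodes fibronectin, which links integrins to fibrillar matrix (ENSMUSG00000026193, chromosome 1, 71585520 to 71653200). It was at 32.2, 12.6 and 0.514 CPM in Met2 and 1.46, 7.56 and 5.4 in Met3, against 85.5, 144 and 106 in Primary2 and 33.1, 66.4 and 64.3 in Primary3. No later metastasis library reached the lowest primary, although Met2 rep 1 came within 1 CPM of it, and Fn1 fell (log2 -3.20, SE 0.68, adjusted p = 0.00419). Without Met2 rep 1 its log2 change was -3.79 (adjusted p = 0.00145). Ccdc80, a secreted glycoprotein that binds matrix (ENSMUSG00000022665, chromosome 16, 45093402 to 45128077), was at 0.603, 0.838 and 0 CPM in Met2 and 0.431, 0.173 and 1.05 in Met3, against 13.2, 30.3 and 28.3 in Primary2 and 26.01, 21.5 and 43.5 in Primary3. Both sides were far apart, and the gene fell, a call that no alternative ended (log2 -5.67, SE 0.54, adjusted p = 3.92e-05). In Met1, Ccdc80 was at 30.01, 28.8 and 75.5 CPM and Fn1 at 29.1, 176 and 94.8 CPM. Thbs1, thrombospondin-1, a matricellular glycoprotein that binds cells and growth factors (ENSMUSG00000040152, chromosome 2, 118111876 to 118127133), was at 119.9, 37.4 and 10.2 CPM in Met2 and 48.1, 32.8 and 13.00 in Met3, against 57.98, 90.3 and 265 in Primary2 and 194, 164 and 212 in Primary3. It fell with overlap (log2 -1.95, SE 0.56, adjusted p = 0.0201). The call was lost without Primary2 rep 3 (adjusted p = 0.0606), and without Met2 rep 1 the log2 change was -2.57 (adjusted p = 0.00308). Thbs1 was at 36.5, 123 and 105 CPM in Met1. Tnc and Sparc, the other matricellular members, did not pass the filter. Tnc was at 4.65 CPM and Sparc at 10.5 CPM in Primary3 rep 3, and neither exceeded 0.664 CPM in any other library.

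**Figure D3:**
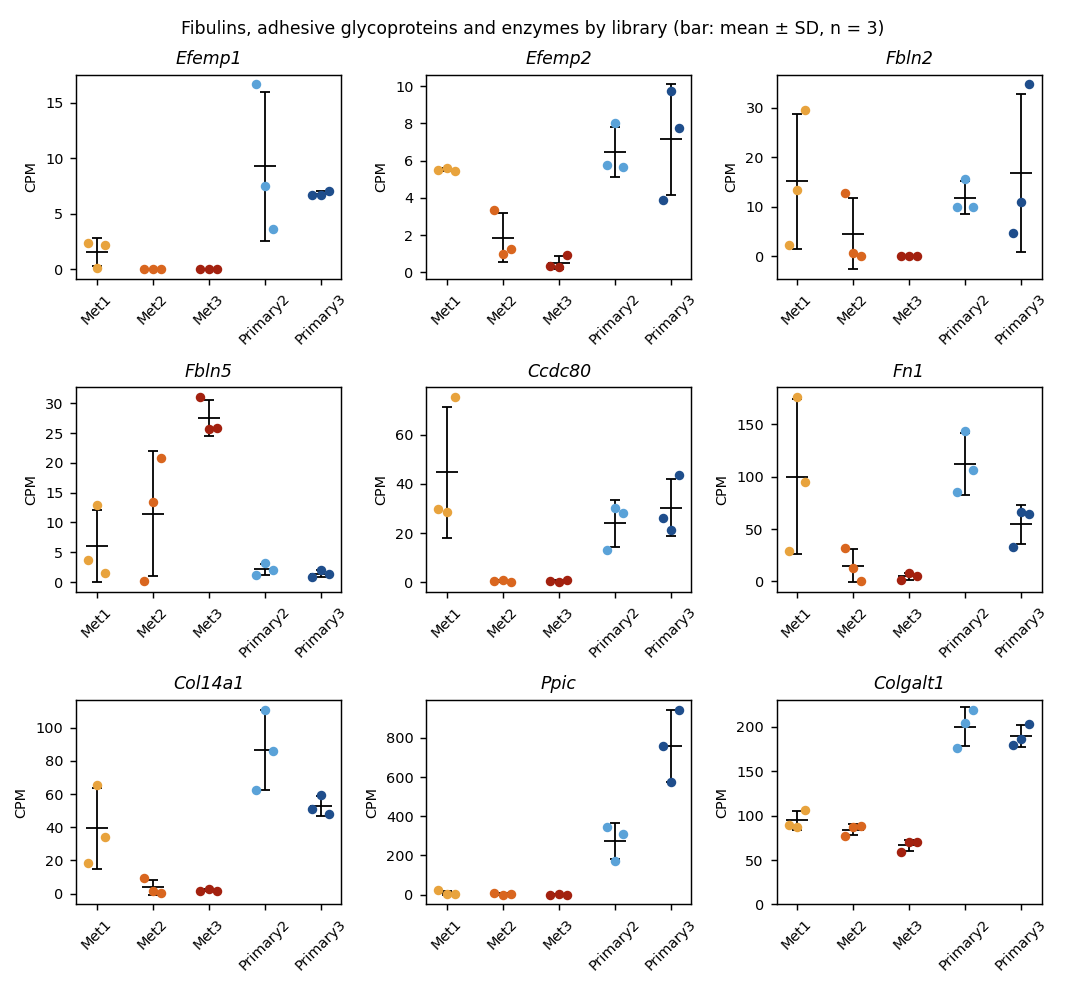
Level in CPM (vertical axis, linear, own scale per gene) of the fibulins Efemp1, Efemp2, Fbln2 and Fbln5 and of Ccdc80, Fn1, Col14a1, Ppic and Colgalt1 in the 5 groups (horizontal axis). Each point is a library and the bar gives mean ± SD (n = 3). Fbln5 lies higher in Met3 than in both primary groups, Ccdc80, Fn1 and Col14a1 lie lower in Met3 than in Met1, and Ppic and Colgalt1 lie lower in all 3 metastasis groups than in the primaries.

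Among collagens that decorate other fibrils (the FACIT group), Col14a1 was the most abundant (ENSMUSG00000022371, chromosome 15, 55307750 to 55520803). It was at 9.18, 1.61 and 0.514 CPM in Met2 and 1.78, 2.65 and 1.83 in Met3, against 62.7, 111 and 86.1 in Primary2 and 50.8, 59.4 and 47.9 in Primary3. It fell with no overlap (log2 -4.58, SE 0.53, adjusted p = 0.000127), and without Met2 rep 1 the log2 change was -5.48 (adjusted p = 7.39e-06). Its Met1 levels, 18.2, 65.7 and 33.98 CPM, overlapped those of the primaries. Col9a1, a chain of the cartilage FACIT collagen IX (ENSMUSG00000026147, chromosome 1, 24177610 to 24252684), was at 33.7, 0.322 and 1.69 CPM in Met2 and 0.754, 0.75 and 2.78 in Met3, against 0.0537, 0.0463 and 0.237 in Primary2 and 0.0674, 0.0643 and 0.236 in Primary3. It was higher with no overlap (log2 5.04, SE 1.21, adjusted p = 0.00776), but 1 library, Met2 rep 1, stood far above the rest. Without that library the log2 change was 3.25 (adjusted p = 0.0169), and limma-voom did not call it (adjusted p = 0.101). Col9a1 was at 1.45, 0.318 and 0 CPM in Met1. Col16a1 was at 0 to 4.69 CPM in the later metastases and 0.537 to 2.44 in the primaries, and Col20a1 at 0.21 to 0.709 and 0.0463 to 1.12. Neither passed in this comparison (log2 -1.14, SE 0.99, adjusted p = 0.411 for Col16a1 and log2 0.88, SE 0.45, adjusted p = 0.155 for Col20a1). Col16a1 passed without Met2 rep 1 (-3.77, adjusted p = 0.00552), where it was at 4.69 CPM. Col9a2, Col9a3, Col12a1, Col19a1 and Col22a1 did not pass the filter, with at most 0.549 CPM in any library.

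Col7a1 encodes the anchoring fibrils that hold a basement membrane to the stroma (ENSMUSG00000025650, chromosome 9, 108953586 to 108984875). It was at 10.2, 0.709 and 1.61 CPM in Met2 and 0.701, 0.808 and 0.419 in Met3, against 4.89, 6.72 and 7.92 in Primary2 and 3.23, 8.87 and 8.78 in Primary3. Met2 rep 1 was the highest of all libraries and the other 5 later metastasis libraries lay below all primaries. Col7a1 fell (log2 -2.03, SE 0.55, adjusted p = 0.0141), with a log2 change of -2.96 without Met2 rep 1 (adjusted p = 0.000186). Its Met1 levels, 0.601, 1.325 and 0.915 CPM, lay below all primaries. Col17a1, the transmembrane collagen of hemidesmosomes, was at 0, 0.0645 and 0.881 CPM in Met2 and 0, 0.115 and 0.0524 in Met3, against 0.161, 0.0926 and 0.806 in Primary2 and 2.02, 0.578 and 0.825 in Primary3. It did not pass (log2 -2.21, SE 0.87, adjusted p = 0.0698), except with limma-voom (adjusted p = 0.0401), with Met1 among the metastases (0.0249) or without Met2 rep 3 (0.00965). The other transmembrane collagens, Col13a1, Col23a1 and Col25a1, stayed at or below 0.0948 CPM.

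Of 11 fibrillar collagens, Col27a1 and Col11a2 passed the filter. Col27a1, a fibrillar collagen known from cartilage, was at 0, 0.129 and 0 CPM in Met2 and 0.0539, 0.0577 and 0 in Met3, against 3.28, 6.07 and 3.13 in Primary2 and 1.01, 2.25 and 2.003 in Primary3. It fell with no overlap (log2 -5.83, SE 0.97, adjusted p = 0.00102), on 4 counts in the 6 later metastasis libraries, and without Met2 rep 2 the fitted log2 change was -7.27 (adjusted p = 0.00263). Col11a2 was at 0.193 to 0.871 CPM in the later metastases and 0.0643 to 0.607 in the primaries and did not pass (log2 0.49, SE 0.50, adjusted p = 0.486). The other fibrillar chains, Col1a1, Col1a2, Col3a1, Col5a1, Col5a2, Col5a3, Col2a1, Col11a1 and Col24a1, could not be tested. Only Col3a1 in Met2 rep 1 (1.68 CPM) and Col5a1 in Primary3 rep 3 (2.94 CPM) exceeded 1 CPM, and both libraries are the ones singled out above.

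Collagen VI forms beaded microfibrils around cells. Col6a5, one of its chains, was at 0.201, 0.838 and 1.98 CPM in Met2 and 1.29, 7.85 and 2.52 in Met3, against 0.913, 0.278 and 0.427 in Primary2 and 0.809, 0.578 and 0.294 in Primary3. The gene was higher (log2 1.84, SE 0.60, adjusted p = 0.0343) with overlap. The call was lost without Met2 rep 3 (adjusted p = 0.101), Met3 rep 2 (0.106), Primary2 rep 2 (0.0782) or rep 3 (0.0756), or Primary3 rep 2 (0.0668) or rep 3 (0.0816). The fit with the replicate number as a block (0.0793), the fit with the ribosomal RNA share as a covariate (0.0749) and limma-voom (0.103) also ended it. With Met1 counted among the metastases the log2 change was -0.034 (adjusted p = 0.918). Col6a1, Col6a2, Col6a3, Col6a4 and Col6a6 did not pass the filter. Col6a1 and Col6a2 exceeded 1 CPM in Primary3 rep 3 alone, at 11.2 and 1.41 CPM, and Col6a6 had no count in any library.

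Col8a1, a short-chain collagen of vessel walls and of the cornea, was at 16.6, 0.0645 and 0 CPM in Met2 and 0, 0 and 0.315 in Met3, against 2.31, 40.6 and 8.96 in Primary2 and 0.876, 2.31 and 8.25 in Primary3. It did not pass (log2 -3.35, SE 1.3, adjusted p = 0.0675), while without Met2 rep 1 it did (-6.89, adjusted p = 0.0012). On all libraries it passed with DESeq2 (adjusted p = 0.0439), without the low-count filter (0.0383) and with Met1 counted among the metastases (0.0254). Col26a1 was at 0 to 0.734 CPM in the later metastases and 0 to 0.835 in the primaries, and Col28a1 at 0.524 to 1.72 and 0.236 to 0.9005. Neither passed (log2 -0.14, SE 0.84, adjusted p = 0.919 for Col26a1 and log2 0.66, SE 0.56, adjusted p = 0.401 for Col28a1), and Col8a2 and Col10a1 were too low to test.

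Both secretory pathway enzymes were lower in the later metastases, and in every alternative. Ppic encodes cyclophilin C, a prolyl isomerase of the secretory pathway (ENSMUSG00000024538, chromosome 18, 53406332 to 53418115). It was at 6.1, 0 and 0.147 CPM in Met2 and 0, 0.115 and 0 in Met3, against 345, 171 and 310.2 in Primary2 and 761, 574 and 945 in Primary3. In 5 of the 6 later metastasis libraries it was near the limit of detection, while every primary library held it at over 100 CPM (log2 -10.56, SE 1.18, adjusted p = 9.77e-05). The fitted change depends on these few counts: it was -12.96 without Met2 rep 1 (adjusted p = 2.56e-05) and -11.88 without Met3 rep 2 (adjusted p = 0.000954). Met1 was low as well, at 22.2, 1.27 and 1.78 CPM. Colgalt1 encodes the galactosyltransferase that starts the sugar on hydroxylysines of collagen (ENSMUSG00000034807, chromosome 8, 71610998 to 71624911). It was at 76.8, 87.5 and 88.6 CPM in Met2 and 59.4, 70.4 and 70.3 in Met3, against 176, 204 and 219 in Primary2 and 179.6, 187 and 204 in Primary3. Replicates lay close together and Colgalt1 had the smallest adjusted p of the 33 members (log2 -1.38, SE 0.087, adjusted p = 2.44e-06). Its Met1 levels, 89.7, 87.4 and 106 CPM, lay below all primaries.

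**Figure D4:**
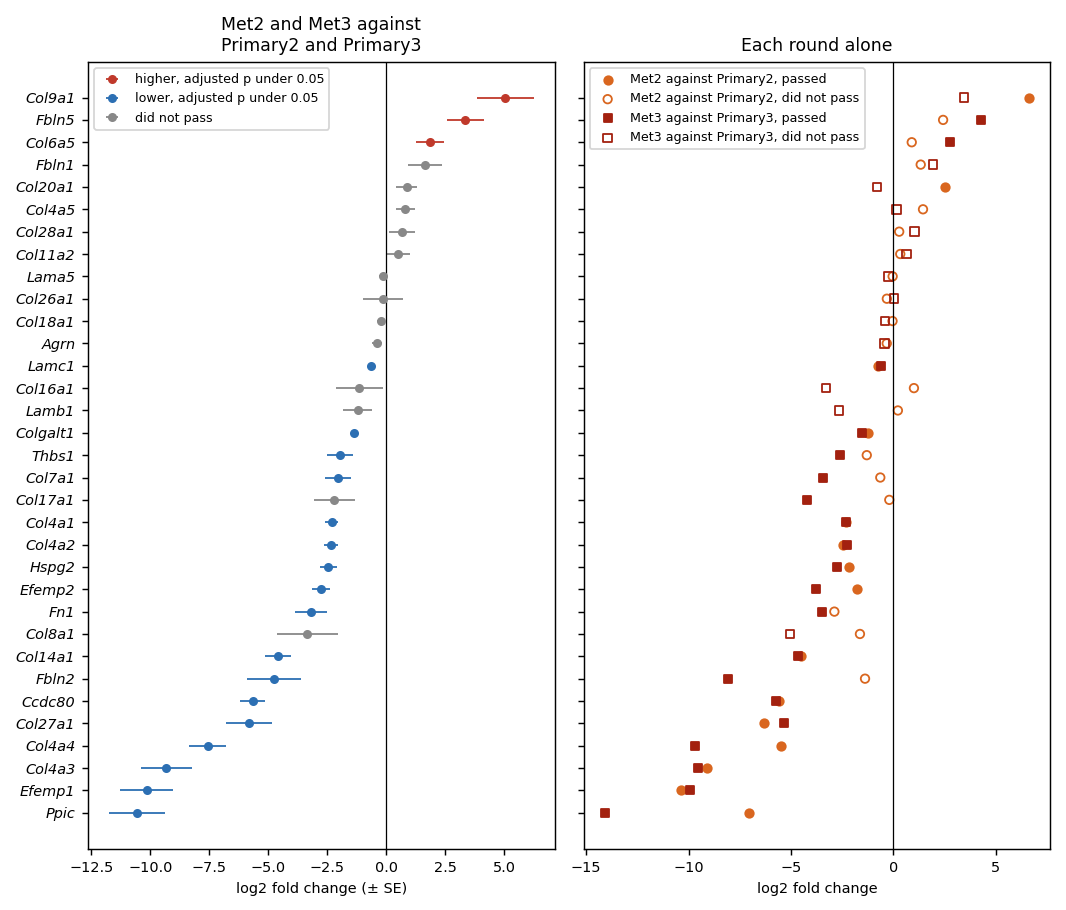
Fitted log2 fold change of the 33 tested members (rows, ordered by the main comparison): at left Met2 and Met3 against Primary2 and Primary3 with SE, coloured where the adjusted p was under 0.05, and at right each round alone, filled where it passed. The values of Col4a3 and Efemp1, which had no count in Met2 and Met3, and of Ppic depend on the prior count of the fit. Most points lie left of 0, and Col9a1, Fbln5 and Col6a5 are the called points to the right.

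Taken round by round, Met2 against Primary2 gave 15 called members, 13 lower and 2 higher, against 11.8% of all tested genes called, 6.35% lower and 5.50% higher. With the ribosomal RNA share as a covariate, which was highest in Met2, 2 members and 112 of all genes were called (1768 without the covariate), and with the fit limited to the groups compared 4 members and 215 of 13534 genes were. In round 2 that share did not overlap between the groups (6.24% to 7.52% in Met2, 3.74% to 3.83% in Primary2). The covariate is thus largely confounded with the round 2 contrast, and the loss of calls there cannot be assigned to ribosomal RNA. Met3 against Primary3 gave 20, 18 lower and 2 higher, against 19.1%, 11.0% lower and 8.12% higher, and without Met3 rep 1 or with that covariate 12 were called. Over all genes the calls then numbered 1415 and 1540, against 2850. With the fit limited to the groups compared, 24 members and 3439 of 13782 genes were called in round 3. These comparisons share no library with each other, but each shares its libraries with the main one. Both come from the same fit of all 15 libraries, so they also share its filter, scaling and estimate of spread. Ccdc80 was lower in both rounds, with a log2 change of -5.75 in round 3 (adjusted p = 0.000775) and -5.58 in round 2 (adjusted p = 0.00201). Colgalt1 was likewise lower, with -1.51 in round 3 (adjusted p = 7.54e-05) and -1.25 in round 2 (adjusted p = 0.000336). Those were the only round 2 calls that no alternative ended. Leaving out 1 library ended the round 2 calls of Efemp2 (adjusted p 0.0792 to 0.124, any 1 library but Met2 rep 1 left out), Hspg2 (without Met2 rep 2 or Primary2 rep 3, 0.0548 and 0.0664), Lamc1 (without Met2 rep 2, Primary2 rep 1 or Primary2 rep 3, 0.0603 to 0.0749) and Col9a1 (without Met2 rep 1 or any 1 Primary2 library, 0.0803 to 0.149). In round 3, 11 calls were never lost, among them Col4a1 (log2 -2.29, SE 0.39, adjusted p = 0.0026), Col14a1 (log2 -4.66, SE 0.76, adjusted p = 0.00243) and Efemp2 (log2 -3.76, SE 0.58, adjusted p = 0.00176). The ratio by which Ppic was lower in Met3 than in Primary3 was 21000 (counting interval 5820 to 174000), on 2 against 36258 counts (adjusted p = 0.00114). The ratio for Fbln2 in round 3 was 321 (counting interval 109 to 1560). Its call (adjusted p = 0.0126) was lost without Met3 rep 1 (0.0559), with the ribosomal RNA covariate (0.0628) and with limma-voom (0.137).

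The round 3 calls of Fn1 (0.0271), Thbs1 (0.042), Lamc1 (0.0394), Col27a1 (0.0184), Col7a1 (0.014), Fbln5 (0.0215) and Col6a5 (0.0393), each with its adjusted p, were lost as well. Fn1 was lost when any 1 library of the round but Primary3 rep 1 was left out (0.055 to 0.103), Thbs1 when any 1 was left out (0.0738 to 0.116), and Lamc1 when any 1 but Met3 rep 3 was left out (0.0611 to 0.171). Col27a1 was lost when any 1 Met3 library was left out (0.0543 to 0.0636) and Col7a1 without Met3 rep 1 (0.0534). Fbln5 was lost without Met3 rep 1 or any 1 Primary3 library (0.0529 to 0.0801), and Col6a5 when any 1 library but Met3 rep 1 was left out (0.05 to 0.18).

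Calls outside the main comparison were Col20a1, a FACIT collagen, higher in Met2 (0.469, 0.709 and 0.367 CPM, against 0.161, 0.0463 and 0.0474 in Primary2, adjusted p = 0.0331), and Col17a1, lower in Met3 than in Primary3 (adjusted p = 0.0404, ratio 20.5 (counting interval 6.64 to 103)). The Col20a1 call was lost without Met2 rep 2 (adjusted p = 0.0824), Primary2 rep 2 (0.107) or Primary2 rep 3 (0.116). The Col17a1 call was lost without any 1 of the 6 libraries of round 3 (adjusted p 0.06 to 0.135). The test of the difference between rounds called 0 of the 33 members and 0.00% of all tested genes by edgeR, while 8 members and 12.2% of all genes had an unadjusted p under 0.05. DESeq2 and limma-voom called 0 members too, and 224 and 0 of all genes. No member is therefore shown to respond differently in round 3 and round 2.

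Met1 against the primaries gave 10 called members, 8 lower and 2 higher, while 29.6% of all tested genes passed, 14.7% lower and 14.9% higher. Without Met1 rep 1 or rep 2 the count was 6 (3158 and 2115 of all genes, against 4420), and with the fit limited to the groups compared it was 16 (5144 of all genes). With Met1 counted among the metastases in the main comparison, the fold was over 1.5 times smaller, with the call kept, for 10 members besides those without a count in Met2 and Met3, with log2 changes for Ccdc80 (-3.53), Col14a1 (-3.32), Hspg2 (-1.71), Efemp2 (-1.95), Fbln2 (-3.12), Fn1 (-2.01), Col27a1 (-4.59), Col4a4 (-6.98), Ppic (-8.96) and Col9a1 (4.10). The same primary libraries serve as controls here and in the main comparison, so the results are given side by side only. Lower in Met1 were Col4a2 (104 ± 17.3 CPM, against 204 ± 75.3 in Primary2 and 245 ± 3.54 in Primary3; SD, n = 3 each; adjusted p = 0.0324), Col4a3 and Col4a4, Col7a1, Lamb1, Col6a5, Ppic and Colgalt1. The log2 change was -1.04 for Colgalt1 (adjusted p = 0.000198), -5.76 for Ppic (adjusted p = 0.00432) and -5.80 for Col4a4 (adjusted p = 0.00166). Col4a3 was lower by a ratio of 92.7 (counting interval 31.5 to 451), on 3 against 498 counts (adjusted p = 0.00441). These 4 calls were not lost in any alternative. The Col4a2 call was lost without any 1 library but Primary2 reps 1 and 2 (adjusted p 0.0501 to 0.113), and Col4a1 did not pass (log2 -0.90, SE 0.33, adjusted p = 0.0569), though it did with DESeq2 (0.0222), limma-voom (0.0478), the replicate block (0.0274), no low-count filter (0.0449) and only the groups compared (0.0103). Without Met1 rep 1, Lamb1 (adjusted p = 0.0533), Col7a1 (0.0593) and Col6a5 (0.0511) no longer passed. Col6a5 was also lost without Met1 rep 2 (0.0614) or rep 3 (0.0639). Higher in Met1 was Col28a1 (1.65, 6.997 and 0.503 CPM, against 0.752, 0.787 and 0.9005 in Primary2 and 0.472, 0.835 and 0.236 in Primary3), which rested on Met1 rep 2: without it the adjusted p was 0.417. Lamc1 was higher too (log2 0.45, SE 0.15, adjusted p = 0.0424), but its call was lost without any 1 library but Met1 rep 1 (adjusted p 0.0516 to 0.146). In 11 of the 33 members the Met1 and primary libraries did not overlap, against 32.5% of all tested genes.

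Met3 against Met1, the last against the first metastasis round, gave 13 called members, 11 lower and 2 higher, against 23.4% of all tested genes, 11.8% lower and 11.6% higher. Lower in Met3 were Ccdc80 (log2 -6.31, SE 0.77, adjusted p = 0.000783), Col14a1 (log2 -4.23, SE 0.75, adjusted p = 0.00317), Fn1 (log2 -4.38, SE 1.02, adjusted p = 0.0101) and Hspg2 (log2 -2.65, SE 0.51, adjusted p = 0.00436). Ccdc80 was at 0.551 ± 0.45 CPM in Met3 against 44.8 ± 26.6 in Met1, and Fn1 at 4.8 ± 3.1 against 100.1 ± 73.7 (SD, n = 3 each). Efemp2 (log2 -3.39, SE 0.57, adjusted p = 0.00278) and Lamc1 (log2 -1.19, SE 0.18, adjusted p = 0.00215) were lower as well, and neither call was lost in any alternative. Efemp1 was at least 29.6-fold lower (adjusted p = 0.0105), and Fbln2 was lower as well (adjusted p = 0.0112, ratio 286 (counting interval 97.5 to 1390)). Neither was called by limma-voom (adjusted p = 0.0741 for Efemp1 and 0.138 for Fbln2). Col6a5 was higher in Met3 (adjusted p = 0.00284, ratio 115 (counting interval 31.4 to 954)), on 208 against 2 counts, and that call was kept in every alternative. Fbln1 was also higher (log2 3.06, SE 0.83, adjusted p = 0.0204). The remaining calls each hung on single libraries: Fbln1 was lost without Met1 rep 2 (adjusted p = 0.079), Met1 rep 3 (0.0723), Met3 rep 1 (0.0627) or Met3 rep 3 (0.0542). Col4a1 (adjusted p = 0.0291) was lost without Met1 rep 2 (0.076), Met1 rep 3 (0.072), Met3 rep 1 (0.101) or Met3 rep 2 (0.0596). Ppic, lower in Met3 (adjusted p = 0.0178, ratio 230 (counting interval 63.2 to 1900)), was lost without Met1 rep 1 (0.0827) or any 1 Met3 library (0.058 to 0.0648), and Colgalt1 (adjusted p = 0.0115) without Met3 rep 1 (0.0574).

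Primary3 against Primary2, the comparison between both primary groups, called no member by edgeR, with 2 members (Col20a1 and Fbln1) at an unadjusted p under 0.05, and DESeq2 and limma-voom called 0. Among all tested genes edgeR called 0.00% and 7.12% had an unadjusted p under 0.05. Ppic was at 759.8 ± 185 CPM in Primary3 and 275 ± 92.2 in Primary2 (SD, n = 3 each), without overlap, but the difference did not pass (log2 1.46, adjusted p = 0.796).

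Genes that act on or with the members were taken from 3 lists. Of 31 genes for collagen folding, modification, trimming and cross-linking, 23 were tested and 7 were lower and 4 higher in the later metastases than in the primaries, beside 16.1% lower and 14.3% higher of all tested genes, the same shares that stand behind the lists that follow. Crtap, part of the prolyl 3-hydroxylase complex (11.3 ± 2.03 CPM in Met2 and 7.21 ± 1.07 in Met3, against 20.8 ± 1.33 in Primary2 and 22.1 ± 3.998 in Primary3), fell (log2 -1.25, SE 0.14, adjusted p = 9.77e-05). So did Serpinh1, the collagen chaperone (log2 -5.67, SE 1.03, adjusted p = 0.00177), P3h1, the enzyme of the Crtap complex (log2 -3.38, SE 0.63, adjusted p = 0.00193), and the cross-linking oxidase Loxl4 (log2 -1.31, SE 0.25, adjusted p = 0.00203). The list's median log2 change was -0.13, and without Met3 rep 2 the higher calls numbered 1. Of 57 other matrix genes 20 were tested, 8 were lower and 0 higher (0 higher also by DESeq2 and limma-voom), with a median of -0.65. Without Met3 rep 1, 5 were lower, and without Met2 rep 2, 3 were higher. The thrombospondin Thbs3 (log2 -4.09, SE 0.32, adjusted p = 9.62e-06), osteopontin gene Spp1 (log2 -3.48, SE 0.30, adjusted p = 1.95e-05), nephronectin gene Npnt (log2 -1.16, SE 0.13, adjusted p = 9.77e-05) and Ltbp4, which binds latent TGF-beta (log2 -2.92, SE 0.54, adjusted p = 0.00193), had the smallest adjusted p.

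Of 31 receptors for collagen, laminin, fibronectin and tenascin, 23 were tested, 8 were lower and 0 higher, with a median log2 change of -0.54. DESeq2 called 1 higher and limma-voom 0, and without Met2 rep 1, 2 were higher. Itgb6, the beta chain of an epithelial fibronectin and latency peptide receptor, fell (log2 -1.85, SE 0.15, adjusted p = 1.51e-05), as did Bcam, a receptor for the laminin chain encoded by Lama5 (log2 -2.10, SE 0.21, adjusted p = 5.06e-05). Itgb1, the beta chain shared by most collagen and laminin receptors (log2 -1.05, SE 0.15, adjusted p = 0.000455), and the collagen receptor kinase Ddr1 (log2 -0.99, SE 0.15, adjusted p = 0.000521) were lower as well. Itgb1 was at 507 ± 121 CPM in Met2 and 412 ± 99.4 in Met3, against 789.9 ± 130.4 in Primary2 and 1139 ± 196 in Primary3 (SD, n = 3 each).

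**Figure D5:**
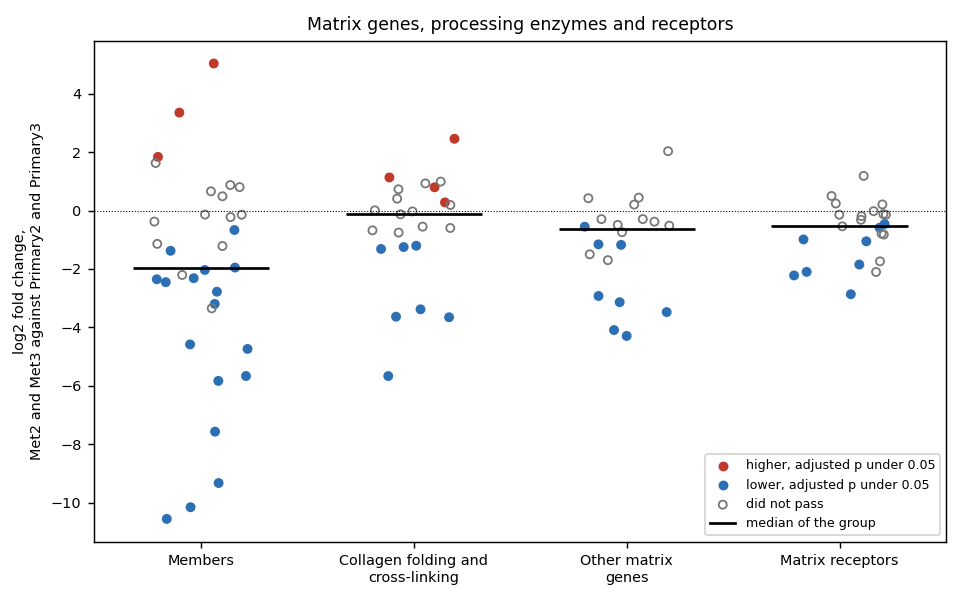
Log2 fold change of Met2 and Met3 against Primary2 and Primary3 for the tested genes (vertical axis) of the set and of 3 related gene lists (horizontal axis, points spread sideways for visibility). Filled points passed the test, open points did not, and the bar is the median: -1.95 for the members, -0.13 for collagen folding and cross-linking, -0.65 for other matrix genes and -0.54 for matrix receptors.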

How the data were processed

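Total RNA from organoid cultures was isolated with the PureLink RNA Mini kit and made into poly(A)-selected, strand-directional NEBNext Ultra II libraries, per the labels' protocols. The authors deposited 1 table of estimated counts per gene and sample; Salmon 1.3.0 and the build mm10 are named in the submitters' processing notes, and how transcripts were summed to genes is not given in the sources used here. All deposited values were whole numbers, so no rounding was needed. Gene symbols and positions came from GENCODE M21 (GRCm38), which matched 54166 of 54418 IDs. The 252 unmatched IDs held 0.00577% of counts.

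Counts were scaled by TMM in edgeR 4.0.16 (R 4.3.3). Genes were filtered with filterByExpr, 1 quasi-likelihood model with a mean per group was fitted to the 15 libraries, and p-values were adjusted by Benjamini and Hochberg over 14925 genes, with a threshold of 0.05. SE was taken as the size of the log2 change over the root of its F statistic. A group with no count is bounded at 3 counts over the group; ratios on 1 to 3 counts carry exact binomial intervals at 95% (Clopper-Pearson), which cover counting error only. Library totals of 14122203 to 21306543 counts make 3 counts worth 0.0489 to 0.0681 CPM in a group of 3 libraries.

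Values per library were given for members called in the main comparison whose log2 CPM averaged 1 or more and for the 8 most abundant per kb. For Lama5, Agrn and Col18a1, which were not called, those of Met1 were left out. Beyond these, up to 6 called members per direction and comparison with the largest change, both members of each collagen IV pair, and up to 4 genes of each related list with the smallest p were named. Other names were picked with their values in view. The members, lists and tests were chosen with earlier results of these data known. Alternatives were DESeq2 1.42.0, limma-voom (limma 3.58.1), another scaling, other filters, a replicate block, the ribosomal RNA share as covariate, only the groups compared, Met1 counted among the metastases, and each library left out. The scripts were tested on simulated counts. Promoter windows came from RefSeq (GRCm38.p6).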

Additional observations from a re-analysis of the deposited data

How the results depend on the processing

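Of the 78 calls of members over the 5 comparisons with calls, 39 kept their direction and their adjusted p under 0.05 in every alternative tried (15 in later metastases against primaries, 2 in round 2, 11 in round 3, 4 in Met1 against primaries and 7 in Met3 against Met1). The number of members called was 20 in later metastases against primaries, 19 to 25 with 1 library left out and 19 to 25 under the other settings. For Met2 against Primary2 it was 15, 10 to 19 with 1 library left out and 2 to 16 under the other settings. It was 2 with the ribosomal RNA share as covariate and 4 with only the groups compared. For Met3 against Primary3 it was 20, 12 to 16 with 1 library left out and 12 to 24 under the other settings. It was 12 with that covariate and 24 with only the groups compared. For Met1 against the primaries it was 10 and 6 to 9 with 1 library left out. Under the other settings it was 7 to 16, with 16 for only the groups compared. For Met3 against Met1 it was 13, 9 to 13 with 1 library left out and 10 to 16 under the other settings. The difference between rounds and Primary3 against Primary2 stayed at 0 called members in every alternative. In later metastases against primaries limma-voom moved the fold of some members by over 1.5 times with the call kept. Their log2 changes were then -3.91 for Fn1, -5.76 for Fbln2, -6.21 for Col4a4 and -11.80 for Ppic. The same held for Col4a3 (-6.8) and Efemp1 (-7.88), which had no count in Met2 and Met3. The replicate block moved the fold of Ppic likewise (log2 change -11.28). Col6a5 reversed, to a log2 change of -0.034, with Met1 counted among the metastases. Where no value shows it, the cause was not tested; left-out libraries leave fewer samples. Without Met2 rep 1 and Primary3 rep 3 together, an alternative added after the data were seen, 3 members were higher and 20 lower in later metastases than in primaries. Without the low-count filter 64 members were tested, 3 higher and 22 lower.

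With the replicate number as a block, 2 members were higher and 17 lower in later metastases than in primaries. Of 30 pairs of same-numbered libraries, 8 had deviations correlated at over 0.1 (range -0.126 to 0.268). With 3 libraries per group, these correlations cannot settle whether a replicate number marks a shared animal or batch. A level at or under 3 counts in a group cannot be told from 0 at this depth, so differences between groups both at that level were not detectable.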
